A study of Homo sapiens with 19 samples.

Results

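A375 is an established human melanoma line, and its RNA was sequenced here from the nuclear and the cytoplasmic fraction of untreated wild-type cells. The members are the 3 libraries titled as nuclear, cytoplasmic and total (WT) RNA of A375, of 19 libraries in the series, and they were chosen by those titles. The rest of the series is total RNA of HEK293 cells (an embryonic kidney line), of HUES66 cells (an embryonic stem cell line) and of HUES66 cells with RBFOX2 knockdowns and their wild-type controls, both treated with doxycycline at 1 µg/ml. Per the labels, cells were taken up in a low-salt buffer, opened with a low concentration of the detergent Triton X-100 and spun at 1500 xrcf. The supernatant was the cytoplasmic sample, the washed pellet was the nuclear sample, and the total sample was set aside before the spin. Each library was made from 1 µg of RNA after removal of ribosomal RNA, with synthetic spike-in RNA added. There was 1 library for each fraction, so no difference below has a replicate check, and intervals of 95% cover counting error only.

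Messenger RNA is spliced in the nucleus and exported through nuclear pores. Messages for secreted, membrane and lysosomal proteins are then translated on ribosomes bound to the endoplasmic reticulum, whose rough part is continuous with the outer nuclear membrane. The ribosome is directed there by the first hydrophobic stretch of the new protein, either a signal peptide at its N terminus or a transmembrane segment. Proteins anchored by a hydrophobic stretch at their C-terminal end are inserted only after translation has ended. Nonsense-mediated decay removes messages with an early stop codon as they are translated, and some RNAs are known to stay in the nucleus. The comparison asks which spliced RNAs, exons and isoforms had a larger share in either fraction.

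The files give the number of reads over each splice junction. The nuclear library held 6499183 junction reads, the cytoplasmic library 22344622 and the total library 8412005, so nuclear values carry the widest intervals. Of these reads 93.4%, 93.7% and 93.8% fell on annotated junctions of 1 gene, and a gene's level is its reads per 1000000 of those (CPM). A level is a share of its own library: more of a gene and less of all other spliced RNA cannot be told apart, and intronless genes are not seen. Spike-in junction reads numbered 0, 2638 and 70 in the nuclear, cytoplasmic and total library and gave no scale between them. All 7 markers of dedifferentiated melanoma (such as AXL and EGFR) and 7 of 11 melanocyte lineage markers (such as SOX10 and MITF) were at 1 CPM or more in total RNA, while MLANA and TYR had 0 reads. None of 6 pluripotency markers reached 1 CPM, nor did 4 of 6 epithelial, 3 of 6 fibroblast and 3 of 4 leukocyte markers.

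The fractions differed widely. A gene counted as higher in a fraction where its level differed by at least 2-fold with an exact interval that left out equality, given 20 or more reads in both fractions together. Of 12758 genes with enough reads, 2843 (22.3%) were higher in the nuclear library and 2328 (18.2%) in the cytoplasmic library, 40.5% in all. As a yardstick, the same rule between the HUES66 control libraries of 48 and 96 hr doxycycline, which also differ in time, passed 1185 of 12815 genes (9.25%), 178 (1.39%) higher at 96 hr and 1007 (7.86%) higher at 48 hr. The median log2 nuclear over cytoplasmic ratio of all genes was -0.11. The total library lay between both fractions for 98.6% of the 4123 called genes with at least 100 reads, with a median place of 0.64 on a scale from 0 (cytoplasmic) to 1 (nuclear).

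Of the gene lists, those of the secretory pathway had the highest median nuclear ratios. Among extracellular matrix and secreted proteins, 31 of 31 genes with enough reads were higher in the nuclear library and 0 in the cytoplasmic one, with a median of 14.7-fold. COL4A2 and COL4A1 (chr13:110305812-110513209 and chr13:110148963-110307233 in hg38), which encode the chains of basement membrane collagen and lie head to head on opposite strands, were at the top. COL4A2 had 1682 CPM in the nuclear, 49.0 in the cytoplasmic and 1053 in the total library, a ratio of 34.3 (32.2 to 36.6). COL4A1 had 849, 24.8 and 530 CPM, a ratio of 34.2 (31.2 to 37.5), so the pair could not be told apart. SERPINE2, a secreted protease inhibitor, had 5727 nuclear and 361 cytoplasmic CPM and took the most reads of the list. LAMB1 (a laminin chain) was 13.6-fold, THBS1 (thrombospondin) 17.1-fold and TNC (tenascin) 24.2-fold higher, and the lowest ratio of the list was 5.31, for LAMA1. Outside the list, further secreted or membrane proteins were as high: FREM2 (32.0-fold), MGAM2 (29.4-fold) and COL5A3 (29.2-fold). GSDMB (94 nuclear and 6 cytoplasmic reads, 54.1-fold, 23.9 to 151) and the collagen COL22A1 (108 and 7, 53.3-fold) had the highest ratios of all named genes, on few cytoplasmic reads. GSDMB is on none of the secretory lists, and its protein was counted below under a C-terminal stretch only. Together the genes of the matrix and secreted protein list took 2.88% of nuclear, 0.183% of cytoplasmic and 1.84% of total reads.

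The other lists of proteins made at the endoplasmic reticulum did the same. All 33 plasma membrane receptors and transporters were higher in the nuclear library, with a median of 10.6-fold. ITGAV (integrin alpha V) had 477 nuclear, 17.8 cytoplasmic and 297 total CPM. Of 23 chaperones and folding enzymes of the endoplasmic reticulum, 22 were higher in the nuclear library, with a median of 10.9-fold. The chaperone HSP90B1 had 2277, 100.1 and 1413 CPM (22.8-fold), CANX was 12.1-fold and CALR 11.1-fold higher. The exception was SDF2L1, with 22 nuclear and 83 cytoplasmic reads and a ratio of 0.915 (0.544 to 1.48). Of 20 lysosomal genes 19 were higher in the nuclear library, with a median of 11.1-fold, and PSAP, the precursor of the saposins, had 1510 against 70.7 CPM. IDS, a lysosomal sulfatase, was the exception and was 3.0-fold (2.32 to 3.94) higher in the cytoplasmic library. In each of these 4 lists the share of genes higher in the nuclear library was at least 95%, against 22.3% of all genes.

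**Figure D1:**
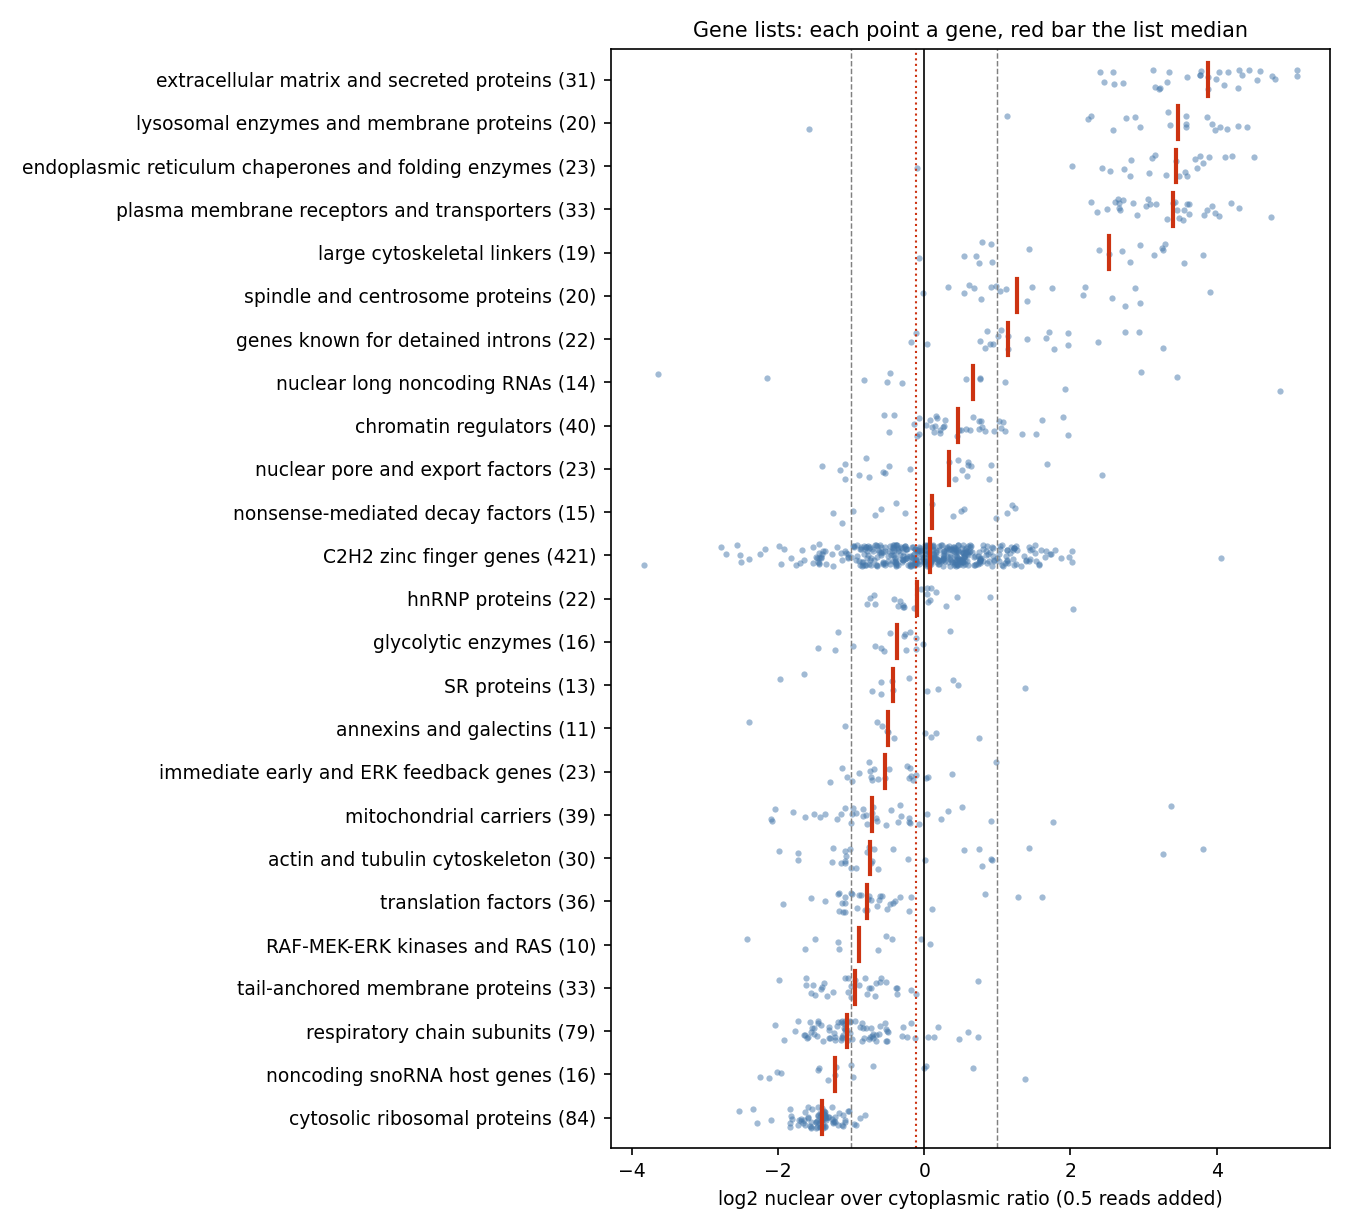
Each point is a gene with enough reads and each red bar the median of its list, on the log2 nuclear over cytoplasmic ratio, with the number of genes in brackets. Dashed lines mark a 2-fold difference, and the dotted red line marks the median of all genes (-0.11). The 4 secretory lists at the top have medians from 3.41 to 3.88 and the ribosomal proteins at the bottom -1.40.

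The same order was seen over all genes when the encoded proteins were sorted by their hydrophobic stretches. On the Kyte-Doolittle scale, a window of 12 residues averaging at least 2.0 that begins within the first 35 residues was taken as an N-terminal stretch. A window of 19 residues averaging at least 1.6 elsewhere was an internal stretch, or a C-terminal stretch where it lay only in the last 50 residues. These classes were set after values had been seen. Of 1836 genes with an N-terminal stretch, 1282 (69.8%) were higher in the nuclear and 92 (5.01%) in the cytoplasmic library, with a median log2 ratio of 2.00. The 2010 genes with an internal stretch had a median of 0.55, with 751 (37.4%) higher in the nuclear and 149 (7.41%) in the cytoplasmic library. The 7746 coding genes with no stretch had a median of -0.41, with 533 (6.88%) nuclear and 1831 (23.6%) cytoplasmic. The 191 genes with a C-terminal stretch only had a median of -0.49, with 24 (12.6%) nuclear and 53 (27.7%) cytoplasmic, against 22.3% and 18.2% of all genes. With stricter thresholds of 2.4 and 1.9 this last class was not on the cytoplasmic side: 57 of 190 genes were nuclear and 45 cytoplasmic, with a median of -0.06. The median was then 2.12 for an N-terminal stretch, 1.46 for an internal stretch (870 of 1423 genes nuclear) and -0.33 for none. With the first thresholds, genes with an N-terminal or internal stretch made up 71.5% of the genes higher in the nuclear library, 10.4% of those higher in the cytoplasmic library and 30.1% of all genes with enough reads.

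Few genes of tail-anchored or mitochondrial proteins were higher in the nuclear library. Of 33 tail-anchored proteins, which carry their membrane anchor at the C-terminal end, 0 were higher in the nuclear and 14 (42.4%) in the cytoplasmic library, against 22.3% and 18.2% of all genes, with a median log2 ratio of -0.94. CYB5A (cytochrome b5) was 4.00-fold (3.10 to 5.25) and SEC61G, a small subunit of the translocation channel, 2.53-fold higher in the cytoplasmic library. Of 79 subunits of the respiratory chain, 0 were higher in the nuclear and 43 (54.4%) in the cytoplasmic library. Of these 79, 8 carry an N-terminal stretch, 13 an internal stretch, 2 a C-terminal stretch only and 56 none. Of all coding genes with proteins under 200 residues, 60.2% were higher in the cytoplasmic and 6.05% in the nuclear library. The length of the proteins in these lists was not taken into account. Of 39 mitochondrial carriers of the SLC25 family, which span the inner mitochondrial membrane, 11 (28.2%, nearer to the share of all genes) were higher in the cytoplasmic and 2 (SLC25A16, 3.41-fold, and SLC25A27, 10.5-fold) in the nuclear library.

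Some genes went against their class. Genes with an N-terminal stretch that were higher in the cytoplasmic library included POPDC3 (6.33-fold), a membrane protein, OST4 (4.31-fold), a very small subunit of the oligosaccharyltransferase, METRN (4.55-fold) and MAD2L2 (4.2-fold). MAD2L2 is a DNA repair protein and no membrane protein, so a stretch on this scale is not proof of a signal. In the other direction, COL6A1 (27.8-fold higher in the nuclear library), THBS1, CEMIP (18.5-fold) and LAMA4 (14.8-fold) are secreted but fell below the threshold for an N-terminal stretch and were counted under no stretch. LMAN1 (9.93-fold) and ADAM23 (8.84-fold) were counted under a C-terminal stretch only, although both enter the secretory pathway. The classes therefore hold wrongly placed genes on both sides.

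**Figure D2:**
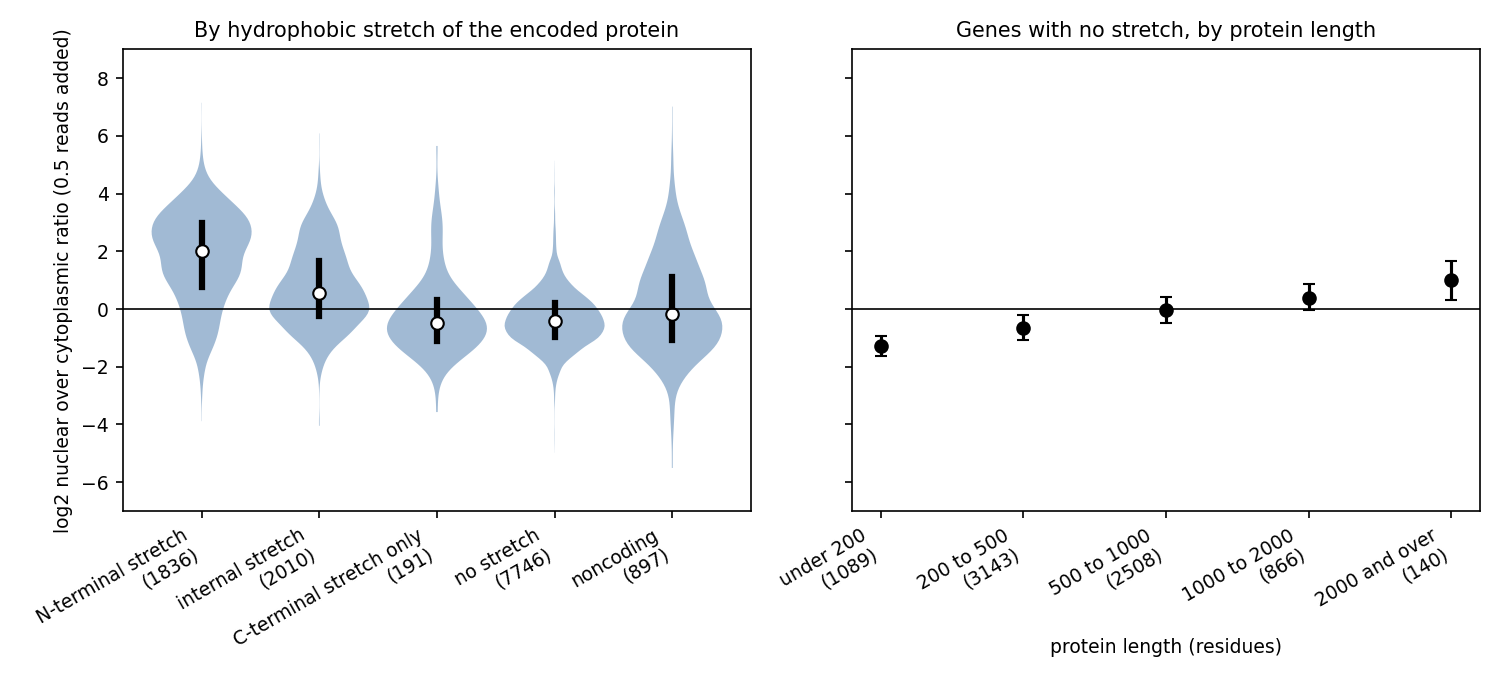
The left panel shows the log2 nuclear over cytoplasmic ratio of genes by the hydrophobic stretches of their protein (white point the median, black bar the quartiles, shaded the distribution). The right panel shows genes with no stretch by protein length (point the median, bars the quartiles), whose medians climb from -1.27 under 200 residues to 1.02 at 2000 and over.

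Among proteins with no stretch, the ratio followed the length of the protein. The 1089 genes with proteins under 200 residues had a median log2 ratio of -1.27, with 11 higher in the nuclear and 765 in the cytoplasmic library. From 500 to 1000 residues the median was -0.04, and the 140 genes at 2000 residues and over had a median of 1.02, with 70 nuclear and 1 cytoplasmic. Across these 7746 genes, which are not independent replicates, Spearman's rho of the log2 ratio was 0.64 with protein length, 0.52 with the number of introns and 0.42 with the span of the gene. The 3 measures go together, and their parts were not tested. Large linker proteins of the cytoskeleton, a list picked after values had been seen, had a median of 5.78-fold. Of its 19 genes with enough reads, 16 have no stretch and 3 an internal stretch. In the nuclear library 12 of the 19 (63.2%, against 22.3% of all genes) were higher, and in the cytoplasmic one 0. DST (dystonin) had 1086 nuclear and 92.8 cytoplasmic CPM (11.7-fold) and DYNC1H1, the dynein heavy chain, 2470 and 472 (5.23-fold). In the same list MYH9 and MYH10 (myosin heavy chains), TLN1 and TLN2 (talins) were between 1.63-fold and 1.91-fold higher, short of the threshold. A list of 20 spindle and centrosome proteins holds 1 with an internal stretch and 19 with none. Of these 20, 12 (60%, against 22.3% of all genes) were higher in the nuclear library and 0 in the cytoplasmic one. They were led by AKAP9 (15-fold, 13.8 to 16.4), a scaffold of the centrosome and Golgi, and ANLN (7.75-fold), the actin-binding protein anillin.

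Messages of ribosomal proteins leaned to the cytoplasm as a whole list. All 84 ribosomal proteins with enough reads had the lower level in the nuclear library. The threshold was passed by 80 (95.2%, against 18.2% of all genes), with a median of 2.64-fold higher in the cytoplasmic library. Of all genes with no stretch and proteins under 200 residues, 70.2% were higher in the cytoplasmic library, with a median of 2.41-fold. A lean to the cytoplasm was therefore not particular to ribosomal proteins. RPL13A had 2384 nuclear, 7032 cytoplasmic and 3894 total CPM (2.95-fold), and the ratios ran from 1.75-fold for RPL7L1 to 5.78-fold (5.60 to 5.96) for RPSA. The list was drawn by gene name, so it also holds genes named as like a ribosomal protein, RPL7L1 among them. This list took 6.54% of nuclear, 18.1% of cytoplasmic and 10.2% of total reads. Of 36 translation factors 11 (30.6%, against 18.2% of all genes) were higher in the cytoplasmic and 2 in the nuclear library. EEF1A1 (elongation factor 1-alpha) had 7010 against 14871 CPM and TPT1 1129 against 4298 (3.81-fold), while EIF5B was 3.05-fold higher in the nuclear library. Both ferritin chains, which store iron, stood well beyond the ribosomal proteins. FTH1 had 358 nuclear, 4766 cytoplasmic and 1769 total CPM, 13.3-fold (12.8 to 13.9) higher in the cytoplasmic library, and FTL had 68.7, 716 and 267 CPM, 10.4-fold (9.45 to 11.5). The genes beyond or near them had few nuclear reads: DGCR6L (6 nuclear and 439 cytoplasmic reads, 21.2-fold, 9.66 to 58.1), ZNF358 (2 and 123), MAFG (3 and 120) and BTBD6 (6 and 208). C12orf75, with 70 and 3016 reads, was 12.5-fold (9.85 to 16.1) higher in the cytoplasmic library, and UBALD2, with 23 and 701, 8.83-fold (5.84 to 14.0).

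RNAs listed here as nuclear were a mixed group. Of 14 long noncoding RNAs on that list, 5 (35.7%, against 22.3% of all genes) were higher in the nuclear library. In the cytoplasmic library 2 (14.3%, against 18.2%) were higher. The median log2 ratio of the list was 0.67, and 0.13 with a minimum of 100 reads. MALAT1, a nuclear speckle RNA (chr11:65497688-65506516), had 443 nuclear, 52 cytoplasmic and 412 total reads on its junctions, a ratio of 29.4 (22.0 to 40.0). MALAT1 and NEAT1 are mostly unspliced, so junctions count a small part of them. MIR17HG, the primary transcript of a microRNA cluster, was 11.4-fold, FTX 7.80-fold, NEAT1 3.79-fold and LINC-PINT 2.14-fold higher in the nuclear library. OIP5-AS1 went the other way, 4.55-fold (2.79 to 7.93) higher in the cytoplasmic library, and PCAT6 had 0 nuclear reads, which allows up to 0.494 CPM, against 1.00 CPM in the cytoplasm. Of 22 genes known for introns that are spliced late or kept in the nucleus, 14 (63.6%, against 22.3% of all genes) were higher in the nuclear library. In the cytoplasmic library 0 were higher, and the median was 2.22-fold toward the nuclear library. OGT, the enzyme that adds N-acetylglucosamine to proteins, had 875 nuclear, 114 cytoplasmic and 604 total CPM (7.67-fold), RSRP1 was 9.60-fold and the cyclin CCNL2 6.70-fold higher. DDX5, an RNA helicase with most reads in this list, was 1.86-fold higher, short of the threshold.

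Host genes of small nucleolar RNAs, whose spliced transcripts carry no long coding sequence, leaned to the cytoplasm. Of 16, 9 (56.25%, against 18.2% of all genes) were higher in the cytoplasmic and 1 (6.25%, against 22.3%) in the nuclear library. GAS5 had 940 nuclear and 2193 cytoplasmic CPM (2.33-fold), and LRRC75A-AS1 237 and 1120 (4.73-fold), while SNHG12 was 2.60-fold (2.26 to 3.0) higher in the nuclear library. By annotated type, 32 (64%) of 50 unprocessed pseudogenes and 84 (47.2%) of 178 transcribed unprocessed pseudogenes were higher in the nuclear library, against 22.3% of all genes. Of these pseudogenes 0 and 19 (10.7%) were higher in the cytoplasmic library, against 18.2%. These are near copies of coding genes, as are GOLGA8A, GOLGA8B (29.8-fold), POTEG (27.1-fold) and ANKRD36 (17.7-fold), so their reads may be split between copies and their values are uncertain. Antisense genes had 21 (9.42%) nuclear and 62 (27.8%) cytoplasmic of 223, and long intergenic RNAs 59 (20.7%) each of 285.

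In the remaining lists the share of genes higher in the nuclear library was at most 22.5%, and the share higher in the cytoplasmic library ran from 0% to 50%, around the 18.2% of all genes. Of 40 chromatin regulators 9 (22.5%, against 22.3% of all genes) were higher in the nuclear library and 0 in the cytoplasmic one, led by CHD9 (3.91-fold) and CHD6 (3.74-fold). Of 23 nuclear pore and export factors 2 (8.70%) were nuclear and 4 (17.4%) cytoplasmic. TPR, the basket protein of the pore, was 5.40-fold and THOC2 3.20-fold higher in the nuclear library. Of 421 C2H2 zinc finger genes 47 (11.2%) were nuclear and 37 (8.79%) cytoplasmic, both below the shares of all genes. Of 13 SR proteins 1 (7.69%, SRSF11 at 2.60-fold) was nuclear and 2 (15.4%) cytoplasmic. Of 22 hnRNP proteins 1 (4.55%, PTBP2 at 4.09-fold) was nuclear and 0 cytoplasmic. Nonsense-mediated decay factors had 3 (20%) nuclear and 2 (13.3%) cytoplasmic of 15. Glycolytic enzymes had 0 and 3 (18.75%) of 16, actin and tubulin genes 3 (10%) and 12 (40%) of 30, and annexins and galectins 0 and 2 (18.2%) of 11. In the pathway that drives many melanomas, immediate early and ERK feedback genes had 0 nuclear and 4 (17.4%) cytoplasmic of 23, and the RAS, RAF, MEK and ERK genes 0 and 5 (50%) of 10. HRAS had 8.90 nuclear and 48.2 cytoplasmic CPM (5.42-fold, 4.12 to 7.26), NRAS was 3.09-fold higher in the cytoplasm, and BRAF, with 78.8 and 74.5 CPM, had a ratio of 1.06 (0.953 to 1.17). RBFOX2, the splicing regulator targeted elsewhere in the series, had 388 nuclear, 2027 cytoplasmic and 658 total reads, or 64.0, 96.8 and 83.4 CPM. Its ratio of 0.661 (0.591 to 0.737) did not reach 2-fold. Of 2 introns that join alternative upstream exons to the same acceptor, the one at chr22:35810005-35938846 had 30 nuclear and 73 cytoplasmic reads and the one at chr22:35810005-35840191 had 2 and 33, with ratios of 1.42 (0.895 to 2.20) and 0.209 (0.0243 to 0.818).

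Isoforms of the same gene separated in the same way as genes. In 141 genes both forms with a hydrophobic stretch (N-terminal or internal) and forms without one had junctions of their own. Forms with a C-terminal stretch only were counted with the latter. Each kind had 10 or more reads over both fractions, and the kinds together had 20 or more in each fraction. The share of the stretch form was at least 10 points higher in the nuclear library, with an interval that left out 0, in 25 genes (17.7%) and higher in the cytoplasmic library in 4 (2.84%). Over all 141 genes the difference was above 0 in 104 and below 0 in 37, with a median of 1.84 points. ATRAID, a membrane glycoprotein, is an example: its intron at chr2:27212468-27213176, private to the stretch form, had 73 nuclear and 72 cytoplasmic reads. The intron at chr2:27212608-27213176, private to the form without, had 11 and 143. The stretch share was 86.9% in nuclear, 33.5% in cytoplasmic and 73.8% in total RNA, a difference of 53.4 points (42.4 to 61.6). FBXW7, a substrate receptor of a ubiquitin ligase with a membrane-bound form, had 33.3% against 4.49%, from 8 of 24 and 7 of 156 reads. FKBP9, a folding enzyme of the endoplasmic reticulum, had 97.7% against 72.3%, and IGFBP6, a secreted binding protein, 98.9% against 74.8%. POM121, which encodes a membrane protein of the nuclear pore, had 17.5% against 3.82%. The reverse was seen in RWDD1 (22.7% against 52.3%), CUX1 (32.5% against 57.8%), ZFP64 and OBSL1.

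**Figure D3:**
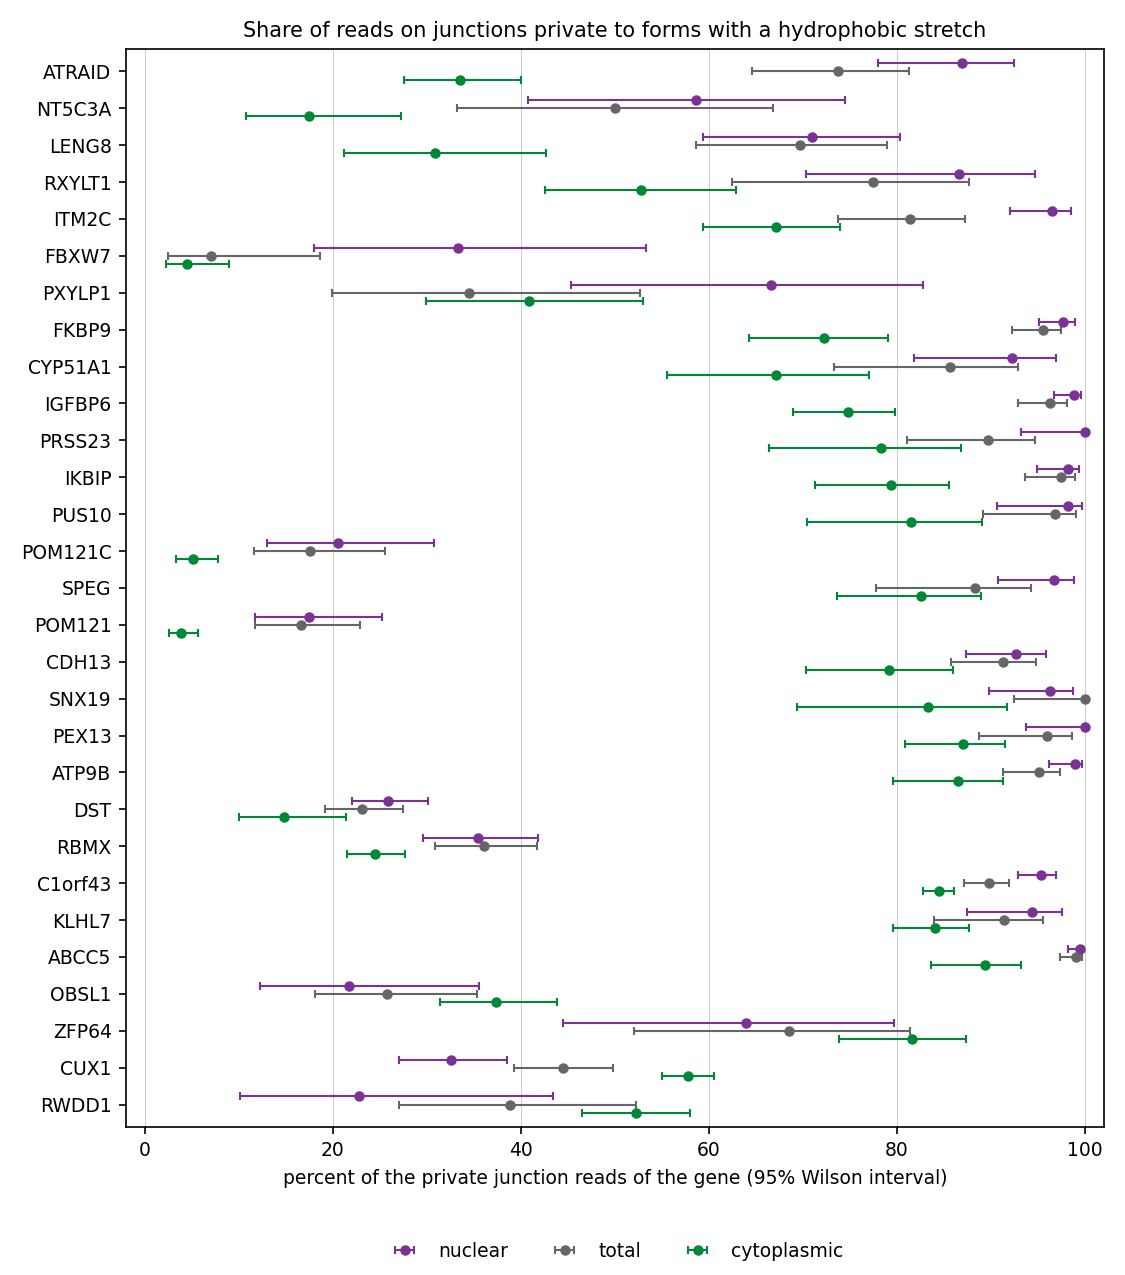
Each row is a gene, and points with bars give the share of its private junction reads that belong to forms with an N-terminal or internal hydrophobic stretch. Shares are in percent with the 95% Wilson interval, in the nuclear, total and cytoplasmic library. Forms with a C-terminal stretch only count as forms without. The upper 25 genes have the larger share in nuclear RNA, from ATRAID at 86.9% against 33.5%, and the lower 4 in cytoplasmic RNA.

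Few exons differed in inclusion between the fractions. Inclusion of an exon was the mean of the reads on its 2 inclusion junctions as a percent of that mean plus the skipping reads, for exons up to 1000 nt with 20 or more such reads in each fraction. Of 10814 exons, 234 (2.16%) were included at least 10 points more in the nuclear and 133 (1.23%) in the cytoplasmic library, with an interval of the difference that left out 0. Between the HUES66 control libraries 539 of 14911 exons (3.61%) passed the same rule in either direction, 294 (1.97%) and 245 (1.64%). The total of 367 (3.39%) here was no larger than that yardstick. The depths were unlike: the controls held 12208870 and 13320107 junction reads, against 6499183 in the nuclear library, and the number of exons that pass depends on depth. In some exons the inclusion junctions carried very unequal reads, so the exons named below, where not said otherwise, have junctions within 3-fold of each other. That left 7104 exons, of which 170 (2.39%) were higher in the nuclear and 105 (1.48%) in the cytoplasmic library. All 275 of these were among the 3413 variable exons, with pooled inclusion of 2% to 98%, where they made up 4.98% and 3.08%.

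**Figure D4:**
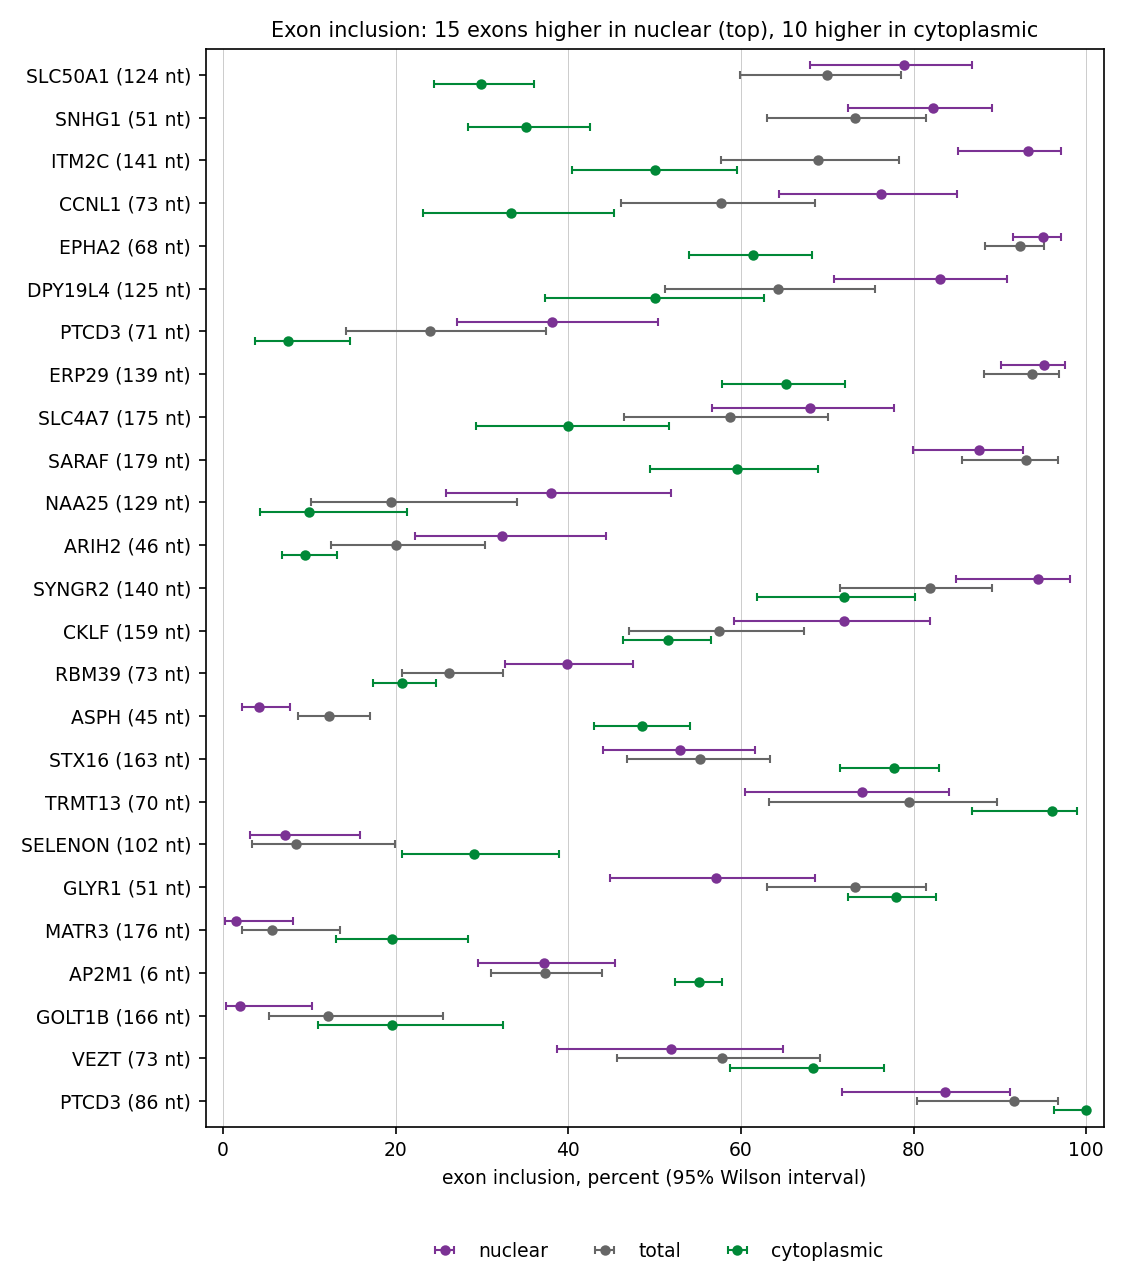
Exon inclusion in percent with its 95% Wilson interval, in nuclear, total and cytoplasmic RNA, for the 15 exons with the largest differences toward the nuclear library (top) and the 10 toward the cytoplasmic library (bottom), with exon length. The top row, SLC50A1, was at 78.9% in nuclear, 70.0% in total and 29.9% in cytoplasmic RNA.

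Several of the exons with the largest differences encode parts of hydrophobic stretches, and 5 of them are shown here 5′ to 3′ in hg38, as the GENCODE transcripts give them, with the codons of residues in a hydrophobic window in capitals. They are SLC50A1 (chr1:155136828-155136951, plus strand), ITM2C (chr2:230873417-230873557, plus), SYNGR2 (chr17:78171510-78171649, plus), CKLF (chr16:66558190-66558348, plus) and C1orf43 (chr1:154219836-154219937, minus), all within coding sequence.
SLC50A1: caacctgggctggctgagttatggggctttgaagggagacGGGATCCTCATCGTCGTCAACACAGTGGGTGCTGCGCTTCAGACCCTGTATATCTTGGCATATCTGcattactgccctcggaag
ITM2C: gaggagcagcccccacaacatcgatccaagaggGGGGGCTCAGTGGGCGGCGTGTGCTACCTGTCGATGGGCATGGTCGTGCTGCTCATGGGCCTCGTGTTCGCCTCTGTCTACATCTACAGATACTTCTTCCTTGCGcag
SYNGR2: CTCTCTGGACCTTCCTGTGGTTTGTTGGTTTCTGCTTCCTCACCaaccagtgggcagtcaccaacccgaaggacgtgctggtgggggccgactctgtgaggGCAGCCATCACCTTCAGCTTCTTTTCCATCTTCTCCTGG
CKLF: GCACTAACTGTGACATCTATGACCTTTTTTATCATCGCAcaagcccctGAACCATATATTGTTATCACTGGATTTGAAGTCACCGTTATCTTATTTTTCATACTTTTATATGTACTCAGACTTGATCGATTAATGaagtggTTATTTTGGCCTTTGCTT
C1orf43: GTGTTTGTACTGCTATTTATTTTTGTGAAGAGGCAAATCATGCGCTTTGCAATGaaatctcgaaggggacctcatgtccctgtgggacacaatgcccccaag
The exon of SLC50A1, a sugar transporter of several membrane passes, had 60 and 51 inclusion and 15 skipping reads in the nuclear library against 84, 55 and 164 in the cytoplasmic one. Its difference of 49.0 points (36.5 to 58.6) was the largest among exons with balanced junctions and at least 50 reads in each fraction, and coding forms that skip it keep other hydrophobic stretches. ITM2C, a type II membrane protein, had 93.2% nuclear, 68.9% total and 50% cytoplasmic inclusion, a difference of 43.2 points (30.7 to 53.5). C1orf43 had 91.1%, 81.5% and 73.1%, a difference of 18.0 points (12.9 to 22.1). The coding forms of ITM2C and C1orf43 that skip the exon have no stretch left. SYNGR2 (synaptogyrin) had 94.4% against 71.9%, and CKLF (a chemokine-like factor) 71.9% against 51.5%. Coding forms of CKLF that skip the exon keep an N-terminal stretch, and those of SYNGR2 were not classified.

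Exons of this kind were also counted as a class, which was set after values had been seen and includes the exons shown above. Of 151 variable exons that encode part of a hydrophobic stretch, from 142 genes, 26 (17.2%) were higher in the nuclear and 0 in the cytoplasmic library, with a median difference of 4.37 points and 115 above 0. Of 2161 variable coding exons that encode none, 73 (3.38%) were nuclear and 64 (2.96%) cytoplasmic, with a median of 0.83 points. Exons whose length is no multiple of 3, so that skipping shifts the reading frame, had the larger difference among stretch exons: 20 of 85 were nuclear, with a median of 5.21 points, against 6 of 66 frame-keeping ones with a median of 2.53. Between the HUES66 controls the 186 stretch exons had 6 higher at 96 hr and 7 at 48 hr, with a median of -0.52 points. Against total RNA in place of cytoplasmic RNA, 4 of 158 stretch exons were higher in the nuclear library and 0 in total RNA, with a median of 2.17 points. Other members of the 26 included MBOAT7 (95.8% against 63.0%), an acyltransferase, SLC4A7 (68.1% against 40.0%), a bicarbonate transporter, SLC38A2 (98.8% against 85.9%), an amino acid transporter, and LRP6 (100% against 89.2%), a receptor for Wnt proteins. In the same way, 33 of 130 (25.4%) frame-shifting exons of genes with an N-terminal stretch were nuclear and 3 (2.31%) cytoplasmic, whatever part of the protein they encode. Frame-keeping exons of this gene class had 10 of 186 (5.38%) nuclear and 3 (1.61%) cytoplasmic, with a median of 1.11 points. Of all 2472 variable coding exons 4.17% were nuclear and 2.79% cytoplasmic. Among genes with no stretch 15 of 659 (2.28%) frame-shifting exons were nuclear and 32 (4.86%) cytoplasmic.

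**Figure D5:**
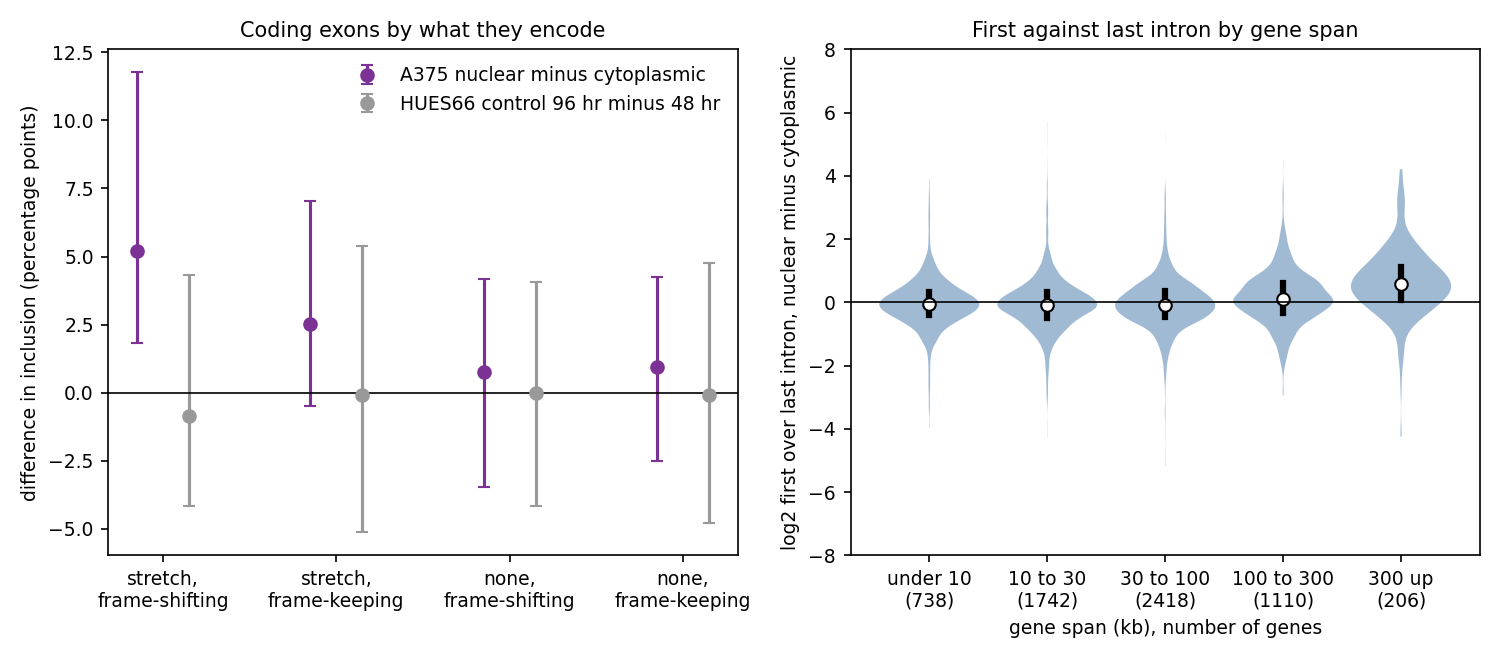
Left, the difference in inclusion of variable coding exons in percentage points (point the median, bars the quartiles), by whether they encode part of a hydrophobic stretch and shift the reading frame, in A375 (nuclear minus cytoplasmic) and between HUES66 controls (96 hr minus 48 hr); the A375 stretch exons that shift the frame have a median of 5.21. Right, the log2 ratio of first to last intron reads, nuclear minus cytoplasmic, by gene span in kb (white point the median, black bar the quartiles), with a median of 0.58 for genes of 300 kb and over.

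Exons that bring in an early stop codon were a further group. Of 368 variable exons used only by transcripts annotated for nonsense-mediated decay, 34 (9.24%) were higher in the nuclear and 15 (4.08%) in the cytoplasmic library, with a median of 1.81 points. That median was 1.79 without the balance of inclusion junctions, and then 0.614 by the lower junction, 1.06 with at least 50 reads and 0.587 against total RNA. Where both forms are coding, 80 of 2216 (3.61%) were nuclear and 60 (2.71%) cytoplasmic, with a median of 0.79. For 5 of the former the sequence from the start of the exon to the stop codon is shown, 5′ to 3′, with the stop codon in capitals, which lies in the reading frame of the annotated decay transcript, ahead of its last junction. They lie at chr3:157157053-157157083 (CCNL1, minus strand), chr20:35740526-35740597 (RBM39, minus), chr16:89878461-89878499 (TCF25, plus), chr11:90206748-90206810 (CHORDC1, minus) and chr10:119580810-119580846 (TIAL1, minus).
CCNL1: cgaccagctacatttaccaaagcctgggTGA
RBM39: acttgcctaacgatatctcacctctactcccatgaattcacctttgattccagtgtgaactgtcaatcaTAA
TCF25: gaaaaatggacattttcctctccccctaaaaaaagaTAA
CHORDC1: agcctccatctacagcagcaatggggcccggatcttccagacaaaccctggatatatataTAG
TIAL1: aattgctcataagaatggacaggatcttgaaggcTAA
CCNL1, a cyclin with a role in splicing, had the exon included at 76.2% in nuclear, 57.7% in total and 33.3% in cytoplasmic RNA, a difference of 42.9 points (26.0 to 56.3). RBM39, a splicing factor, had 39.9%, 26.2% and 20.8%, a difference of 19.1 points (10.9 to 27.5). TCF25 had 17.9% against 3.21%, CHORDC1 16.7% against 3.64% and TIAL1, an RNA-binding protein, 18.9% against 5.96%. In genes of SR proteins, which are known for such exons, 13 of them had enough reads, 11 had a higher inclusion in the nuclear library and 2 passed the rule. These were in SRSF11 (36.8% against 2.56%) and TRA2A (25.9% against 7.14%), with 6 and 71 and with 0 and 13 nuclear reads on their inclusion junctions, so both values are uncertain. SRSF2 had 5.45% against 2.86%, SRSF6 7.62% against 2.63% and SRSF3 1.71% against 1.19%. As a share of the junction reads of coding genes, junctions found only in decay transcripts took 0.167% of nuclear and 0.146% of cytoplasmic reads, a ratio of 1.14 (1.11 to 1.17). The ratio was 1.02 without ribosomal protein genes and 1.05 with equal weight for each gene.

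Further exons also differed. SNHG1, a noncoding snoRNA host, had a 51-nt exon at 82.3% in nuclear and 35.1% in cytoplasmic RNA. EPHA2, a receptor kinase, had a 68-nt exon at 95% against 61.4%, and ERP29, a protein of the endoplasmic reticulum, a 139-nt exon at 95.1% against 65.3%, both frame-shifting exons of genes with an N-terminal stretch. PTCD3, a mitochondrial ribosome protein, had exons in both directions, at 38.1% against 7.53% and at 83.6% against 100%. With the larger inclusion in the cytoplasmic library, ASPH, a hydroxylase of the endoplasmic reticulum, had a 45-nt exon at 4.19% nuclear, 12.3% total and 48.5% cytoplasmic inclusion, a difference of -44.3 points (-50.3 to -37.8). STX16 (a syntaxin) had a 163-nt exon at 52.9%, 55.2% and 77.7%, and GLYR1 a 51-nt exon at 57.1%, 73.3% and 77.9%. MATR3 (matrin 3) had a 176-nt exon at 1.52% against 19.6%. The exons of PCDHGC3, IKBIP, TINAGL1, BCAP31, ITPA and AP2M1 also ranked among the largest differences, but one of their inclusion junctions had few or 0 reads beside the other in at least 1 library, and no inclusion is given for them.

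First and last introns of a gene differed between the fractions mainly in very long genes. Over 6214 coding genes with at least 4 introns, the log2 ratio of first to last intron reads had a median shift of -0.02 from the cytoplasmic to the nuclear library. In the 206 genes spanning 300 kb or more the shift was 0.58, and 158 of them (76.7%) had the higher first to last ratio in nuclear RNA, as in 57.7% of the 1110 genes of 100 to 300 kb. The median log2 first to last ratio of these 206 genes was 0.12 in nuclear, 0.07 in total and -0.33 in cytoplasmic RNA. With transcripts cut into 5 equal parts, the log2 ratio relative to the gene's own, in 264 genes of that span, ran from 0.19 in the first part through 0.07, 0.04 and -0.10 to -0.26 in the last, and in genes under 30 kb all parts lay between -0.04 and 0.02. GULP1, an adaptor of phagocytosis, had 37 first and 24 last intron reads in the nuclear library and 76 and 206 in the cytoplasmic one. SOX5, a transcription factor, had 133 and 60 against 172 and 208, and IGF1R, the receptor of insulin-like growth factor, 111 and 62 against 27 and 36. Relative to their own gene, junctions of any intron length class had a median log2 ratio between -0.01 and 0.05.

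Junctions off the annotation took 3.34% of nuclear, 2.49% of total and 1.68% of cytoplasmic reads. Most of the excess had neither splice site annotated, at 2.12%, 1.31% and 0.632%. New pairs of annotated sites hardly differed, at 0.295%, 0.287% and 0.270%. Scaffold KI270733.1, which carries ribosomal DNA repeats, took 0.557% of nuclear and 0.00383% of cytoplasmic junction reads. Apparent junctions on the mitochondrial genome, whose genes have no introns, took 0.0483% of nuclear, 0.0364% of total and 0.00121% of cytoplasmic reads. Reads of both kinds were thus more frequent in the nuclear library, and whether its reads came from inside nuclei or from material that sedimented with them cannot be told apart from these counts.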

How the data were processed

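The deposited files are raw counts: each lists the splice junctions of 1 library with the number of reads over each (the count), and the authors applied no normalization. Per the submitters' processing notes, reads were mapped to hg38 with STAR 2.7.1 and SAMtools 1.9 was used; filters are not given in the sources used here. Junctions were matched to GENCODE 29, and reads on annotated junctions of 1 gene name were scaled to CPM (reads per 1000000 such reads). Junctions shared by genes (3.31% to 4.57% of reads) were left out. Ratios carry exact (Clopper-Pearson) intervals, shares Wilson intervals and differences of shares Newcombe intervals. Log2 ratios used 0.5 added reads. There is 1 library for each fraction, so nothing was tested. Hydrophobic stretches were computed with Biopython 1.88 from GENCODE transcripts, for the coding transcript with most reads.

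Gene lists and members were chosen with earlier results of these data known. The hydrophobic classes, the balance of inclusion junctions, the isoform comparison and the lists of tail-anchored, mitochondrial carrier, lysosomal, annexin, linker, spindle and RAF-MEK-ERK genes were chosen after values had been seen. Genes named are the 12 highest and 12 lowest ratios with at least 100 reads and, in each list, the 3 with most reads, the highest and the lowest, and exons the 10 largest differences in each direction with at least 50 reads; others were picked after their values were seen. XIST and Y-linked genes are not reported. Alternatives were TMM (edgeR 4.0.16) and DESeq2 1.42.0 factors, other minimums, stricter hydrophobic thresholds, thinning and total RNA as the partner. Computation used Python 3.11.15 with pandas 2.3.3 and R 4.3.3, and the steps were tested on simulated data.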

Additional observations from a re-analysis of the deposited data

How the results depend on the processing

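No paired analysis was possible because each fraction had 1 library. With TMM or DESeq2 scaling, minimums of 1 or 100 reads, or the cytoplasmic library thinned to the nuclear depth, genes higher in the nuclear library numbered 2143 to 3282 (2843 as reported) and in the cytoplasmic library 1980 to 2501 (2328). Against total RNA as the partner they were 137 and 549. TMM moved all log2 ratios by -0.05 and DESeq2 factors by -0.02. The median of all genes, -0.11, turned to 0.0187 with 5 reads added and 0.12 with a minimum of 1 read. The median of genes with an N-terminal stretch lay 2.41 above that of genes with none, and 2.27 above it with 5 reads added, 2.15 with a minimum of 1 read and 2.54 with a minimum of 100. Exons higher in the nuclear library, 234 as reported, were 74 with a minimum of 50 reads, 152 by the lower inclusion junction, 137 after thinning and 57 against total RNA. Those higher in the cytoplasmic library, 133 as reported, were 41 with a minimum of 50 reads and 51 after thinning. Variable exons included in decay transcripts and, between the same splice sites, in no coding one had a median difference of 1.79 points without the balance rule. It was 1.06 with 50 reads, 0.614 by the lower junction and 0.587 against total RNA. The ratio of reads on junctions of decay transcripts, 1.14, was 1.02 without ribosomal protein genes and 1.05 with equal weight for each gene. The ratio of unannotated reads, 1.99, was 1.81 for junctions with at least 5 reads. Genes whose stretch form had the larger share in nuclear RNA, 25, were 5 against total RNA. The causes were not tested, beyond the fewer reads that higher minimums and thinning leave. At the depth of the nuclear library an exon with 20 reads cannot show a difference of a few points.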
